A study of Mus musculus with 18 samples.

Results

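Basal keratinocytes (b-KCs) sorted as mutant, from mice with an inducible deletion of Jun and Junb, were compared with b-KCs of the same mice sorted as non-mutant. The comparison rests on 6 of the 18 RNA-seq libraries of the study, the GFP and Tom b-KC libraries of mice 814, 815 and 817, which were chosen by their labels and paired by mouse number. DKO* mice carried floxed Junb and floxed c-Jun alleles, a Cre recombinase fused to the estrogen receptor under the keratin 5 promoter, and the mT/mG reporter, in which Cre replaces membrane Tomato by membrane GFP. They were 8 weeks old, were of mixed background, received 4 injections of 2 mg tamoxifen, and their ears were collected at day 7. Living CD45- CD49f-high CD34- cells were sorted as b-KCs, with GFP+ cells taken as mutant and Tomato+ cells as non-mutant. The 3 b-KC control libraries (Co) came from mice 810, 825 and 828, which carried the same Cre and reporter with wild-type or heterozygous Junb and c-Jun and were also given tamoxifen. Hair follicle stem cells (HF-SCs, CD45- CD49f-high CD34+) of the same animals gave the other 9 libraries. The colour of a cell reports recombination of the reporter, so the transcripts of Jun and Junb themselves were the check of deletion in each fraction.

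Jun (c-Jun) and Junb are subunits of AP-1, a dimeric transcription factor made of Jun and Fos family proteins that is induced within minutes by growth factors, cytokines and stress. In epidermis AP-1 acts in keratinocyte growth, differentiation and inflammation. Basal keratinocytes are the dividing layer that feeds the interfollicular epidermis, and when stressed they release alarm cytokines, among them TSLP, which acts on immune cells and on keratinocytes. GFP and Tom cells of a mouse share the same inflamed skin, so their difference is the part of the transcript levels that goes with the fraction and not with the animal.

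Levels are given in FPKM, the fragments counted per transcript length and per mapped reads of the library. Differences are GFP minus Tom on log2(FPKM + 1), which makes changes of weakly expressed genes look smaller than they are. They were tested with limma, with the mouse as a random block, on the 12751 genes that reached 1 FPKM in 3 or more of the 18 libraries. Genes with an adjusted p-value under 0.05 are said to be called, to rise or to fall. Total counts are not known from FPKM. A rough relative depth was read from the ratios of low values between libraries, 48.5% to 52.3% of which lay at ratios of small whole read numbers, and it was 0.997 to 1.08 for the 6 libraries, taking b-KC GFP of mouse 814 as 1. The b-KC Co libraries had 1.03 to 1.17 on the same measure.

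The sorted cells had transcripts of basal keratinocytes, and those of suprabasal keratinocytes beside them. Krt5, the basal keratin, had 2999, 2753 and 5473 FPKM in GFP of mice 814, 815 and 817 and 5198, 4093 and 7318 in Tom. Krt14, its partner, was listed at 0 in GFP of mouse 817 and in Tom of mice 814 and 817, against 6838 to 11450 FPKM in every other library of b-KCs. These zeros stand beside high Krt5 and are not read as absence. Of 6 basal markers, limma called 0 (1 had an unadjusted p under 0.05, and 0 were called without the block), with a median difference of -0.37, and of 6 suprabasal markers it called 1, Sbsn, with a median of 0.63. The basal list, with the Krt14 zeros in it, summed to 6305 to 10370 FPKM in GFP and 5780 to 16070 in Tom. The suprabasal list summed to 4904 to 6928 in GFP, 3883 to 6984 in Tom and 6938 to 8633 in Co. Markers of cell types other than keratinocytes were mostly low. The summed level of 6 endothelial markers was 0.340 to 1.88 FPKM in GFP and 1.60 to 4.71 in Tom, that of 4 leukocyte markers 1.91 to 3.05 and 1.07 to 2.2, and that of 5 fibroblast markers 3.62 to 5.82 and 1.63 to 3.73. The leukocyte marker Ptprc, which encodes CD45, had at most 0.0636 FPKM in any of the 6 libraries. In the Langerhans and myeloid list, Cd207 had at most 0.958 FPKM, whereas the antigen presentation genes Cd74 and H2-Aa had 167 to 805 and 49.7 to 199.8 FPKM, against 3.32 to 6.53 and 1.09 to 2.06 in Co. The 3 neutrophil markers found in the file summed to 6.58 to 9.44 FPKM in GFP and 8.31 to 10.3 in Tom, nearly all of it Cxcr2, with Mpo at or under 0.0397. The 3 T cell markers found summed to 9.27 to 22.6 and 8.80 to 42.0, nearly all of it Thy1, and melanocyte markers to 2.61 to 4.41 and 1.11 to 2.0. Erythroid genes summed to 1.70 to 17.4 and 1.27 to 10.0.

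In all, 614 genes were called, or 4.82% of those tested, of which 412 (3.23%) were higher and 202 (1.58%) lower in mutant GFP cells. The median difference was 0.82 for those that rose and 0.64 in size for those that fell, over ranges of 0.32 to 3.40 and 0.36 to 2.70. Few were large, with 18 rises and 5 falls of at least 2. The median over all 12751 genes was -0.01. Each of the 614 genes had the same sign in all 3 mice, and in 539 of them the 3 GFP and the 3 Tom libraries did not overlap, which held for 15.8% of all tested genes. The genes were called by their difference in these same libraries, so equal signs and lack of overlap add no support to the calls. The number of called genes depended on the pairing and on single mice. Without the mouse as a block 218 genes were called, and of the 614 genes 131 were called without mouse 814, 60 without mouse 815 and 518 without mouse 817, with 0 changes of sign. Over the 614 genes the median size of the difference was 0.87 in mouse 814, 0.80 in mouse 815 and 0.68 in mouse 817. A core of 49 genes was called in the fit given here and in 7 others, namely without the block, with a fixed block, with median or quantile scaling, and without each mouse. Jun, Junb, Il33, Slpi, Serpine2, Ear1, Gsta4, Fscn1, Pi15, Ccl20, Cxcl2, Cdkn1a, Btg2, Ctgf, Krt7, Hspb1, Gpx2 and Isg15 were among them.

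**Figure D1:**
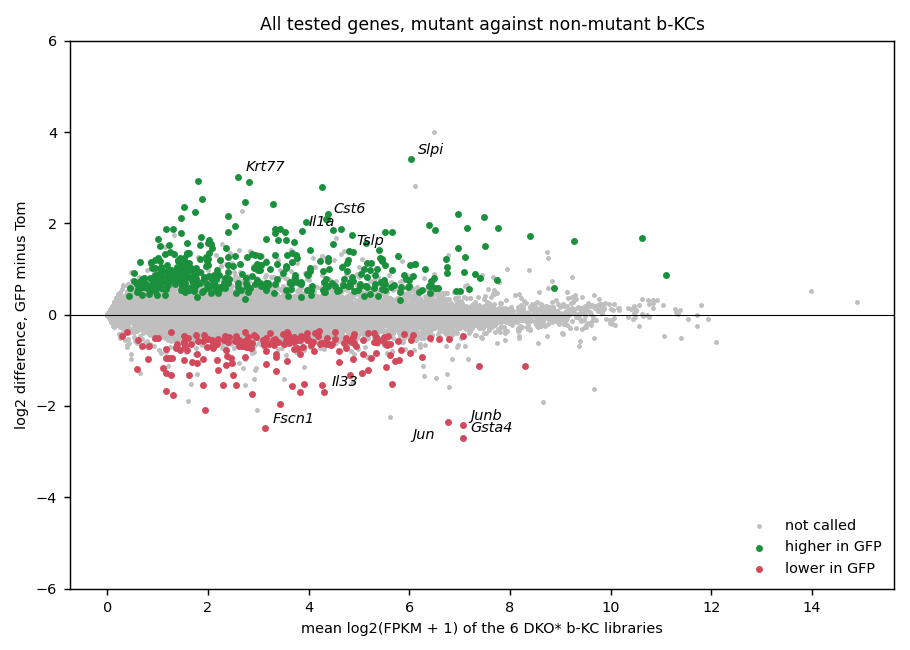
Log2 difference between GFP and Tom b-KCs against the mean log2(FPKM + 1) of the 6 libraries for the 12751 tested genes, with 1 point a gene. The 412 genes called higher are green, the 202 called lower are red and the rest are grey; the grey point near 4 is Krt14, whose value rests on the zeros of 3 libraries.

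Jun, on chromosome 4 at 94715725 to 94718913 (NCBIM37, minus strand), had 53.9, 65.4 and 29.6 FPKM in GFP of mice 814, 815 and 817. In Tom it had 163, 229 and 400.4 FPKM, and in Co 876, 979.7 and 1000 FPKM. Every GFP library lay below every Tom library, and every Tom library below every Co library. The difference was -2.36 (SE 0.38, adjusted p = 0.00203, limma, Benjamini-Hochberg adjustment), with mean levels of 49.6 ± 18.3 FPKM in GFP and 264 ± 123 in Tom (SD, n = 3), a ratio of 5.32 between Tom and GFP.

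Junb, on chromosome 8 at 87500811 to 87502617 (minus strand), had 69.4, 72.2 and 37.2 FPKM in GFP, 208, 362 and 397 in Tom, and 737, 772 and 739.7 in Co. The order of the groups was the same as for Jun, without overlap. The difference was -2.42 (SE 0.28, adjusted p = 1.78e-04, limma). Mouse 817 had the largest difference for both genes, -3.71 for Jun and -3.38 for Junb, and mouse 814 the smallest, at -1.58 and -1.57. Transcript of both genes was still counted in sorted GFP cells, and FPKM does not tell from which part of the gene those reads came.

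In the AP-1 list, Jun and Junb included, the median of the 17 tested members was 0.44. Of these, 4 were called, 2 higher and 2 lower (Jun and Junb), a share of 23.5% beside 4.82% over all genes. Jund, the remaining Jun protein, had 45.0, 52.5 and 78.9 FPKM in GFP and 22.9, 39.1 and 49.0 in Tom, and rose by 0.68 (SE 0.18, adjusted p = 0.0387, limma), still below the 95.9 to 103.5 FPKM of Co. Maff, a small Maf protein that lacks a transactivation domain, rose by 0.55 (adjusted p = 0.0222, limma), from 4.29 ± 0.978 to 6.66 ± 0.395 FPKM (SD, n = 3), against 13.7 ± 0.840 in Co. Neither rise was called without the block, with a fixed block, or without mouse 814 or mouse 815. Without the block and without either of those mice, Jun and Junb were the calls of this list, and the fixed block called Mafk beside them. No Fos gene passed the test. Fos, the immediate-early partner of Jun, had 470.5, 474 and 1305 FPKM in GFP and 273, 429.5 and 879 in Tom (difference 0.50, adjusted p = 0.468, limma). The differences were 0.60 for Fosb, 0.52 for Fosl1, 0.45 for Fosl2, 0.73 for Atf3, 0.62 for Mafk, 0.44 for Batf, 0.18 for Mafg, 0.11 for Jdp2 and 0.07 for Atf7, with adjusted p-values from 0.0784 to 0.932. Those of Atf2 and Maf were -0.03 and -0.14. Batf2 and Batf3 had at most 0.221 FPKM in the 6 libraries and were not tested.

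Of the cytokines and alarm signals, 23 of 27 listed genes were tested, 3 rose and 3 fell, and the median was 0.04. The share called was 26.1%, beside 4.82% over all genes. Without mouse 814 and without mouse 815, Il33 was the 1 member called. Tslp, on chromosome 18 at 32975037 to 32979453, had 55.2, 52.9 and 30.1 FPKM in GFP, 12.9, 13.6 and 24.2 in Tom and 7.09, 6.26 and 7.64 in Co. All 3 mice had more Tslp in GFP than in Tom, by 2.02, 1.88 and 0.30, and the GFP and Tom libraries did not overlap. The difference was 1.40 (SE 0.24, adjusted p = 0.00322, limma). It was not called with the mouse as a fixed block over the 6 libraries (adjusted p = 0.0752, limma), nor without mouse 814 (adjusted p = 0.0993, limma) or mouse 815 (adjusted p = 0.10, limma).

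Il1a encodes interleukin 1 alpha, which keratinocytes store and release on damage. It had 38.9, 40.6 and 11.6 FPKM in GFP, 7.00, 7.58 and 5.73 in Tom and 2.33 to 3.30 in Co. The GFP libraries lay above all Tom libraries, with a difference of 1.83 (SE 0.30, adjusted p = 0.00241, limma), and adjusted p = 0.0757 and 0.0824 (limma) without mouse 814 or 815. Tnf, the tumour necrosis factor gene, had 14.2, 17.6 and 7.51 FPKM in GFP and 5.22, 8.37 and 4.13 in Tom. Its libraries overlapped between the groups, GFP of mouse 817 lying below Tom of mouse 815, while each mouse had more in GFP. The difference was 1.00 (SE 0.21, adjusted p = 0.0103, limma) and was not called without the block (adjusted p = 0.0825, limma) or without mouse 814 or 815.

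Il33, a nuclear alarmin of the interleukin 1 family, went the other way. It had 6.71, 9.34 and 15.7 FPKM in GFP, 23.3, 28.3 and 62.0 in Tom and 92.5, 96.9 and 109.6 in Co, so that the 3 groups were in the order GFP, Tom, Co with no overlap, as for Jun and Junb. The difference was -1.69 (SE 0.24, adjusted p = 8.93e-04, limma) and was close in the 3 mice, at -1.66, -1.50 and -1.91. Il18, another member of that family, had 1.69, 3.05 and 1.20 FPKM in GFP, 10.6, 9.66 and 3.73 in Tom and 2.29 to 4.53 in Co. The difference was -1.54 (SE 0.32, adjusted p = 0.010, limma), and the adjusted p was 0.0806 without the block. Il24, of the interleukin 10 family, had 1.18, 1.30 and 1.10 FPKM in GFP and 2.37, 4.72 and 12.4 in Tom, a difference of -1.54 (adjusted p = 0.0458, limma), which only the fit without mouse 817 among the leave-one-out fits also called (adjusted p = 0.0155). It was not called without the block (adjusted p = 0.193, limma), with the fixed block (0.0726) or after quantile normalization (0.0886) either.

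Other members of this list did not pass the test, although without mouse 817 the list had 6 rises and 4 falls, with Il1f6, Il20 and Il23a among the rises and Il6 among the falls (adjusted p = 0.00209, 0.0134, 3.36e-04 and 0.00909, limma). With the fixed block the list had 3 rises and 2 falls, and as Tslp was not called there, a further member rose. Il19 had 132.6 to 321 FPKM in GFP and 218 to 239.7 in Tom, against at most 0.766 in Co, and a difference of -0.07 (adjusted p = 0.961, limma). The interleukin 36 genes Il1f6, Il1f8 and Il1f9 had differences of 0.31, -0.48 and -0.20, and their antagonist Il1f5 had 0.81. Il1f9 had 180.6, 171.5 and 53 FPKM in GFP and 189.8, 185 and 71.8 in Tom, against 10.9 to 15.3 in Co. Il1b and Il1rn differed by 0.22 and 0.32, Lif by 0.31, Il20 by 0.75, Il23a by 0.77 and Hmgb1 by -0.28. Il6, with 1.95, 3.26 and 3.85 FPKM in GFP and 11.7, 15.3 and 6.23 in Tom, differed by -1.54 (adjusted p = 0.192, limma), and Csf3 by -0.66 (adjusted p = 0.247, limma). The receptors of the list, Crlf2, Il1r1, Il1r2 and Il1rl2, had differences of 0.04, 0.09, -0.43 and -0.17. Il25, Csf2, Il7r and Il1rl1 were below the filter, and Il25 was listed at 0 in all 6 libraries.

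**Figure D2:**
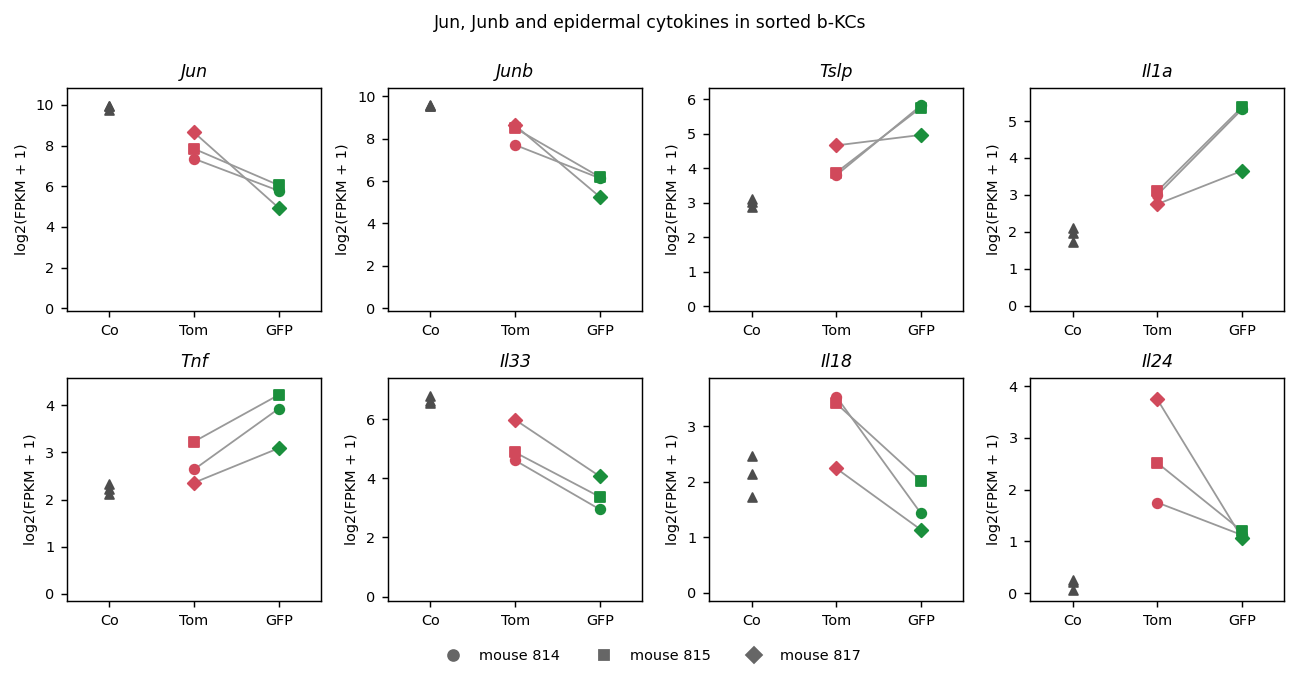
Log2(FPKM + 1) of Jun, Junb and 6 cytokine genes in the 3 Co libraries (triangles) and in the Tom (red) and GFP (green) b-KC libraries of mice 814, 815 and 817, with lines joining the fractions of a mouse. Jun, Junb and Il33 had their highest values in Co and their lowest in GFP, and Tslp, Il1a and Tnf were higher in GFP than in Tom in each mouse, least so for Tslp in mouse 817.

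The largest of the 10 named rises in mutant cells was that of Slpi. Slpi, an inhibitor of leukocyte proteases, had 295, 328.5 and 98.7 FPKM in GFP, 17.4, 25.8 and 15.8 in Tom and 4.79 to 8.31 in Co, a difference of 3.40 (SE 0.37, adjusted p = 1.72e-04, limma). Its symbol covers a wide annotated span on chromosome 2 (164179806 to 164214831). Krt77, a keratin of sweat ducts and embryonic suprabasal epidermis, had 23.9, 20.4 and 8.65 FPKM in GFP and 1.04, 0.767 and 1.65 in Tom, a difference of 3.02 (SE 0.43, adjusted p = 8.80e-04, limma). Both fractions lay far below the 149 to 221 FPKM of Co for Krt77 and above Co for Slpi. Krt77 was not called without mouse 815 (adjusted p = 0.0702, limma).

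Serpine2, a serine protease inhibitor that acts on thrombin, rose by 2.52 (adjusted p = 1.72e-04, limma), with 5.56, 5.95 and 14 FPKM in GFP and 0.418 to 0.715 in Tom. Ear1, an eosinophil-associated ribonuclease gene with close paralogs, rose by 2.48 (adjusted p = 1.09e-04, limma), from 0.639 to 2.92 FPKM in Tom to 9.25 to 20.2 in GFP, and was listed at 0 in all 3 Co libraries. Mcam, the adhesion molecule CD146, had 9.46, 10.7 and 58.1 FPKM in GFP and 1.19, 1.53 and 2.06 in Tom, a difference of 2.91 (adjusted p = 0.00379, limma). GFP of mouse 817 was the highest library for Mcam and Serpine2, and Mcam was not called without mouse 815 (adjusted p = 0.0505, limma).

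GFP of mouse 817 was the lowest of the 3 GFP libraries for the other rises. Plac8 had 23.7, 16.6 and 1.01 FPKM in GFP and 0.218 to 0.291 in Tom (difference 2.92, adjusted p = 0.00550, limma), Cd177 had 15.4, 9.23 and 0.624 against 0.0744 to 0.522 (2.36, adjusted p = 0.0104), and 1100001G20Rik, listed elsewhere as Wfdc21, had 44.2, 47.3 and 4.40 against 2.59 to 4.05 (2.42, adjusted p = 0.0325). Lrg1, a secreted leucine-rich glycoprotein of the acute phase, had 143, 86.8 and 9.39 FPKM in GFP and 14.3, 6.56 and 2.46 in Tom (2.79, adjusted p = 0.00683). H2-Q8, a class Ib histocompatibility gene with near-identical neighbours whose reads can be split between them, had 5.52 to 7.73 FPKM in GFP, and in Tom 3.69e-04 and 0.00151 beside 2.72 in mouse 817 (2.24, adjusted p = 0.0191), so its value is uncertain. Without mouse 814 or without mouse 815, Plac8, Cd177, 1100001G20Rik, Lrg1 and H2-Q8 were not called (adjusted p from 0.0558 to 0.389, limma), and with the mouse as a fixed block Plac8, Cd177 and 1100001G20Rik were not (adjusted p = 0.0605, 0.0604 and 0.0851).

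The largest fall was that of Gsta4, a glutathione transferase that clears lipid peroxidation products. It had 61.9, 60.0 and 37.6 FPKM in GFP, 312, 416 and 310.2 in Tom and 11.3 to 28.8 in Co, a difference of -2.70 (SE 0.28, adjusted p = 1.45e-04, limma). Fscn1, the actin-bundling protein fascin, had 2.75, 3.40 and 2.10 FPKM in GFP, 17.9, 24.3 and 17.9 in Tom and 1.51 to 2.76 in Co, a difference of -2.49 (SE 0.28, adjusted p = 1.72e-04, limma). Pi15, a secreted peptidase inhibitor, had 1.53, 0.865 and 0.380 FPKM in GFP and 12.6, 6.71 and 3.85 in Tom (-2.09, adjusted p = 6.37e-04). For Fscn1 the GFP libraries overlapped those of Co while Tom stood above both, and for Gsta4 and Pi15 the order was Co, GFP, Tom.

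Sprr2k, a small proline-rich protein of the cornified envelope whose family members share sequence, had 5.54, 9.06 and 1.47 FPKM in GFP and 17.7, 36.2 and 12.7 in Tom, a fall of 1.96 on the log2 scale (adjusted p = 0.00800, limma). Fhl2, a LIM-domain cofactor known to bind Jun and Fos proteins, fell by 1.74 (adjusted p = 0.00550), from 8.40 to 18.9 FPKM in Tom to 0.928 to 5.2 in GFP. Slc7a8, an amino acid transporter, fell by 1.76 (adjusted p = 0.0191), and its Tom level in mouse 817, 0.564 FPKM, was far below the 6.60 and 6.91 of the others. Guca2a, which encodes guanylin, had 3.61, 5.52 and 15.4 FPKM in GFP, 9.01, 28.4 and 56.6 in Tom and 132 to 157 in Co, and fell by 1.70 (adjusted p = 0.0187). Without mouse 815 Sprr2k, Slc7a8, Fhl2 and Guca2a were not called (adjusted p from 0.0505 to 0.301, limma), nor were Sprr2k and Slc7a8 without mouse 814 or Slc7a8 with the fixed block (adjusted p = 0.0582).

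**Figure D3:**
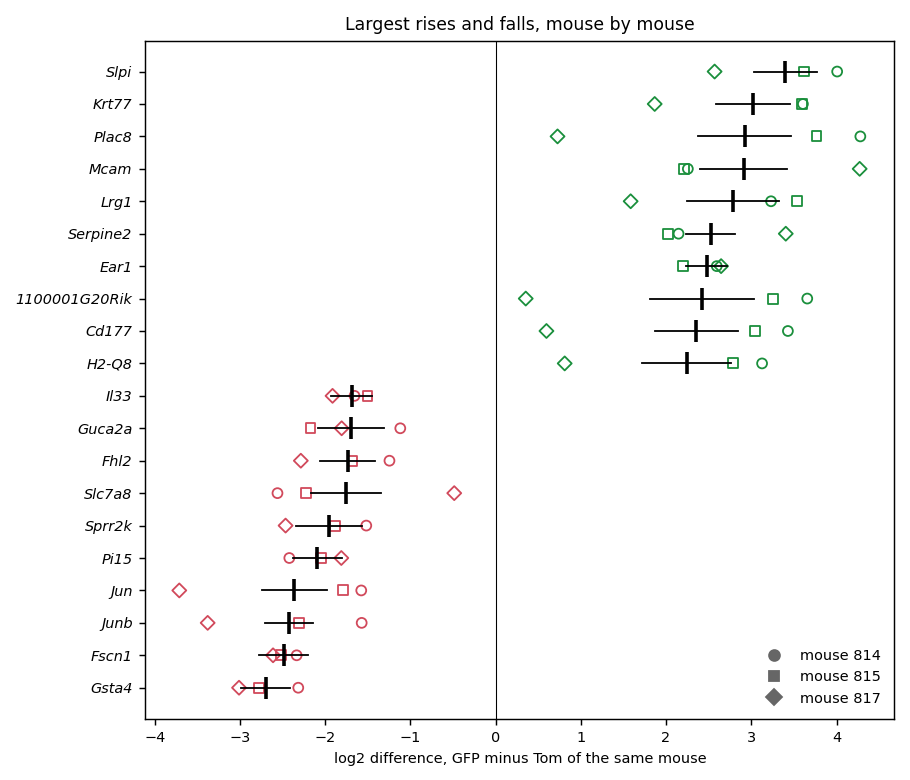
Log2 difference of GFP minus Tom b-KCs in each of 3 mice (open symbols) for the 10 genes with the largest rise and the 10 with the largest fall, with the limma estimate (bar) and its standard error (line). Gsta4, Fscn1, Il33 and Ear1 lay close together in the 3 mice, while mouse 817 was nearest to 0 for Plac8, 1100001G20Rik, Cd177, H2-Q8 and Slc7a8 and farthest from it for Jun, Junb, Mcam and Serpine2.

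Immediate-early genes outside AP-1 leaned to higher levels in mutant cells. Of 33 tested, 32 had a positive difference and 7 rose, with 0 falling and a median of 0.45. The share called was 21.2%, beside 4.82% over all genes, and 6164 of all 12751 tested genes had a positive difference. Ctgf, a matricellular protein, rose most, by 1.78 (SE 0.20, adjusted p = 1.72e-04, limma), with 22.6, 18.9 and 12.8 FPKM in GFP, 4.50, 3.90 and 4.90 in Tom and 38.7 to 50.1 in Co. The antiproliferative gene Btg2 had 123, 160 and 214 FPKM in GFP, 55.1, 72.3 and 80.2 in Tom and 252 to 255 in Co, and rose by 1.23 (adjusted p = 2.52e-04). The other called members were Egr2 (0.95), Sgk1 (0.79), Gadd45b (0.77), Egr3 (0.73) and Dusp6 (0.58). The Co mean lay above the GFP mean in all of the 7 except Gadd45b. Without mouse 814 or mouse 815, 2 of the list were called, and without the block also 2.

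The p53 target and apoptosis list, with 32 tested, had 5 rises and 0 falls, a share called of 15.6% beside 4.82% over all genes, a median of 0.45 and 27 positive differences. Cdkn1a, the cyclin-dependent kinase inhibitor p21, had 162, 186 and 294 FPKM in GFP, 52.9, 90.5 and 85.0 in Tom and 203 to 264 in Co. Every Tom library lay below every GFP and Co library, with a difference of 1.47 (SE 0.20, adjusted p = 5.43e-04, limma). Trp53inp1 rose by 1.63 (adjusted p = 0.0218), with 46.7 FPKM in GFP of mouse 817 beside 9.35 and 11.5. It was not called without the block, with the fixed block (adjusted p = 0.0842, limma), after quantile normalization or without any 1 of the 3 mice (adjusted p from 0.0548 to 0.154). Bax, a pro-apoptotic Bcl2 family gene, had 55.0, 57.4 and 61.2 FPKM in GFP, 31.2, 33.5 and 36.6 in Tom and 24.2 to 28.5 in Co, and rose by 0.76 (adjusted p = 0.00529). Mdm2, which encodes the ubiquitin ligase of p53, rose by 0.64 (adjusted p = 0.00940), and Bid by 0.61 (adjusted p = 0.0125), neither of which was called with the fixed block (adjusted p = 0.0513 and 0.0874). Without mouse 814 the list had 2 calls, without mouse 815 1 call, and without the block 2.

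Genes of cell division leaned to lower levels in mutant cells, by small steps. All 30 mitosis genes and all 26 DNA replication genes tested had negative differences, with medians of -0.47 and -0.39, and 5 and 3 of them fell. The shares called were 16.7% and 11.5%, beside 4.82% over all genes, 1.58% of which fell. Of all 12751 tested genes, 6587 had a negative difference. The members were measured in the same 6 libraries, so their signs are not separate observations. Top2a, the topoisomerase of dividing cells, had 35.8, 34.7 and 45.7 FPKM in GFP, 70.9, 43.9 and 70.1 in Tom and 30.3 to 33.5 in Co (difference -0.63, adjusted p = 0.0205, limma). Bub1, Cenpe, Ttk and Ccna2 fell by 0.64, 0.56, 0.55 and 0.52 on the log2 scale, and the replication genes Mcm6, Mcm4 and Rrm1 by 0.53, 0.50 and 0.47. Rbl1, the pocket protein p107, had 11.5, 12.9 and 12.6 FPKM in GFP and 17.9, 19.1 and 19.7 in Tom, a fall of 0.57 (adjusted p = 0.00534), and with Cdkn1a was 1 of the 2 calls among 19 genes of G1 control, whose median was -0.14. The share called in that G1 list was 10.5%. The fall of Rbl1 was not called with a fixed block (adjusted p = 0.0552, limma) or without mouse 815 (adjusted p = 0.0854). The differences had the same sign throughout but the calls did not last. Without the block and with a fixed block, 0 mitosis and 0 replication genes were called, without mouse 817 0 and 1, without mouse 815 1 and 0, and without mouse 814 0 and 0. The mitosis median was -0.28 without mouse 817.

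Of 20 chemokine genes tested, 6 rose and 0 fell, and the median was 0.64, beside 3.23% of all genes that rose and their median of -0.01. Ccl20, which draws CCR6+ lymphocytes and dendritic cells, had 484, 547 and 275 FPKM in GFP, 75.5, 152 and 120 in Tom and 72.7 to 96.3 in Co, a difference of 1.90 (SE 0.24, adjusted p = 2.66e-04, limma). The neutrophil chemokines Cxcl1 and Cxcl2 had 363, 312 and 249.7 against 74.3, 105 and 160, and 39.5, 32.8 and 23.6 against 10.9, 12.9 and 14 FPKM, which are differences of 1.49 (adjusted p = 0.0289) and 1.25 (adjusted p = 4.59e-04). For all 3 the GFP libraries stood above all Tom and Co libraries. Ccl27a rose by 1.13 (its gene has near-identical copies on chromosome 4, so its level is uncertain), Cxcl12 by 1.08 and Cxcl16 by 0.77. Ccl20 and Cxcl2 were also called without mouse 814 and, with Cxcl16, without mouse 815 and without the block. Cxcl1 and Ccl27a were not called with the fixed block either (adjusted p = 0.0511 and 0.0866, limma).

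Of 23 tested S100 and antimicrobial genes, 4 rose and 0 fell (17.4% called, beside 4.82% over all genes), with a median of 0.33. Besides Slpi and 1100001G20Rik, these were Chil1, a chitinase-like protein, with 684, 613 and 125 FPKM in GFP and 115, 108 and 47.9 in Tom (2.14, adjusted p = 0.00884, limma), and Lcn2, the iron-binding lipocalin, with 2024, 1557 and 401 against 533, 458 and 183 (1.60, adjusted p = 0.0279). Both were far above Co in both fractions, at 15.7 to 20.1 and 2.48 to 5.96 FPKM. Without the block, without mouse 814 or without mouse 815, 1 of the 4 was called. Among 20 small proline-rich and stefin genes, Cst6, which encodes cystatin M/E, rose by 2.10 (adjusted p = 0.00185) and Stfa2l1 by 1.38 (adjusted p = 0.00875), Sprr2k fell, and the median was -0.32. Without mouse 814 or mouse 815, 0 of these 3 were called.

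Differentiation genes leaned to the mutant side. Of 45 tested suprabasal and cornified envelope genes, 38 had positive differences, 4 rose and 0 fell, a share called of 8.89% beside 4.82% over all genes, and the median was 0.66. Beside Krt77, these were Spink5, which encodes the epidermal protease inhibitor LEKTI (5.2 ± 0.972 FPKM in Tom, 24.6 ± 15.5 in GFP, 25.3 ± 5.24 in Co, SD, n = 3), Sbsn (75.3 ± 19.7, 157 ± 40.1 and 269 ± 46.0) and the transcription factor Ovol1 (117 ± 29.2, 216 ± 26.5 and 193 ± 21.9), with differences of 1.80, 1.04 and 0.90. The abundant early keratins were not called, Krt10 having a difference of 0.34 (adjusted p = 0.698, limma) and Krt1 one of -0.22 (adjusted p = 0.875). Without mouse 815 0 members were called, without mouse 814 1 (Krt77) and without mouse 817 17 (16 higher and 1 lower). The stress keratin list had 6 tested members, among them Krt7, a keratin of simple epithelia and not of wounding. The share called was 33.3%, beside 4.82% over all genes. Krt17 rose from 956 ± 431 to 3330 ± 1925 FPKM (SD, n = 3, difference 1.68, adjusted p = 0.0103). Krt7 rose from 0.0595, 0.128 and 0.191 FPKM in the Tom libraries to 2.04, 2.2 and 3.62 in GFP (1.66, SE 0.13, adjusted p = 1.22e-05). Krt17 was not called without the block (adjusted p = 0.0944, limma) or without mouse 814 (0.0873) or mouse 815 (0.171). Krt6a and Krt16, keratins induced by wounding, had values in the other direction. Krt6a had 418, 340.2 and 62.5 FPKM in GFP and 801, 1094 and 559.5 in Tom (difference -1.92, adjusted p = 0.0595, limma), and Krt16 had 879, 763 and 151 against 1692, 2534 and 691 (-1.62, adjusted p = 0.0980). Krt16 was called with the fixed block (adjusted p = 0.0377, limma) and without mouse 817 (adjusted p = 0.0209). The list median was 0.01.

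Basal layer and adhesion genes leaned the other way, with 26 of 30 differences negative, a median of -0.29 and 1 call. The share called was 3.33%, below the 4.82% over all genes, and 6587 of all 12751 tested genes had a negative difference. Dsc2, a desmosomal cadherin, had 8.72, 7.72 and 3.85 FPKM in GFP, 33.7, 22.5 and 12.1 in Tom and 4.95 to 6.81 in Co, a fall of 1.57 (SE 0.30, adjusted p = 0.00601, limma), which was not called without mouse 814 (adjusted p = 0.0777) or mouse 815 (adjusted p = 0.0904).

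Markers of the hair follicle leaned to the mutant side, and 3 of 10 were called. All 6 bulge markers had positive differences with a median of 0.80, and Sox9 (0.98) and Lhx2 (0.92) were called. Sox9 had 11.2, 11.8 and 7.87 FPKM in GFP, 3.93, 6.41 and 3.96 in Tom and 13.2 to 15.3 in Co. All 4 markers of the upper follicle and sebaceous gland were higher in GFP in each mouse, with a median of 0.93, and Krt79, a keratin of the infundibulum, had 202, 235 and 94.2 FPKM in GFP, 39.2, 55.6 and 33.2 in Tom and 322 to 441.5 in Co (1.96, adjusted p = 0.00470, limma). Without mouse 814 and without mouse 815, 0 of these 10 markers were called, with adjusted p = 0.0645 and 0.0903 for Krt79. Without the block and after quantile normalization, 0 bulge markers were called. Cd34, on which the gate excluded HF-SCs, had 2.43, 2.24 and 0.382 FPKM in GFP and 2.53, 2.21 and 0.341 in Tom. The summed level of the bulge list was 524 to 1163 FPKM in GFP and 178 to 699 in Tom, against 3088 to 3154 in Co. That of the upper follicle list was 288 to 950.4 in GFP, 157 to 409 in Tom and 816 to 1132 in Co. The follicle markers leaned the same way as the differentiation genes and Krt77 above, and their part in these results was not tested. Fewer cells of a type and less RNA per cell cannot be told apart in bulk libraries.

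**Figure D4:**
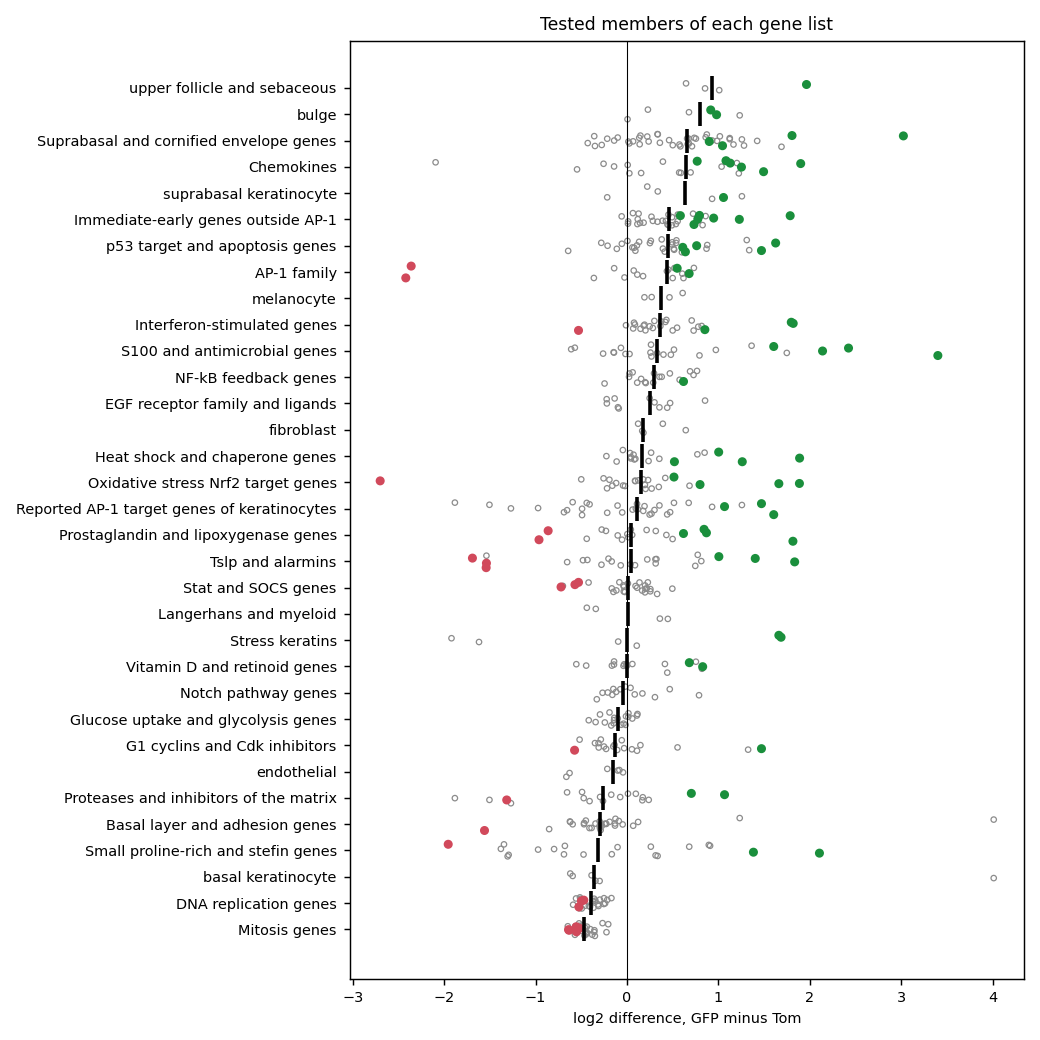
Log2 difference of GFP minus Tom b-KCs for each tested member of the gene lists with at least 4 tested members, ordered by list median (bar). Filled points were called higher (green) or lower (red) and open points were not called; all mitosis and replication genes lie left of 0, and the open point near 4 in the basal lists is Krt14.

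Of 24 tested Nrf2 target genes, with a median of 0.15, Gpx2 (1.89), Gsta3 (1.66), Nqo1 (0.80) and Sqstm1 (0.51) rose and Gsta4 fell. Of 18 heat shock and chaperone genes, with a median of 0.16, Hspb1 rose from 75.1 ± 24.4 to 272 ± 34.8 FPKM (SD, n = 3, difference 1.89, adjusted p = 1.45e-04, limma), against 470 ± 76.8 in Co. Xbp1 (1.26), Hspb8 (1.00) and Dnajb1 (0.52) rose as well, but were not called without the block. Hspb8 and Dnajb1 were not called with the fixed block either. The interferon-stimulated list, with 25 tested, had 3 rises and 1 fall and a median of 0.36. Isg15, a ubiquitin-like interferon-induced protein, had 8.29, 7.99 and 10.4 FPKM in GFP, 1.56, 1.61 and 2.27 in Tom and 0.935 to 2.34 in Co, and rose by 1.82 (SE 0.26, adjusted p = 7.87e-04), with Ifit1 (1.80) and Oasl2 (0.85) beside it. Without mouse 814 these lists had 3, 1 and 2 calls in the same order, and without mouse 815 2, 1 and 1.

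Socs3 (-0.57) and the interleukin 4 receptor gene Il4ra (-0.72) were among the 3 falls of 27 Stat and SOCS genes, with 0 rises and a median of 0.01. Il4ra had 19.1, 18.9 and 21.3 FPKM in GFP and 36.8, 26.2 and 38.1 in Tom. Neither Socs3 nor Il4ra was called without the block, after median rescaling or quantile normalization, or without any 1 of the 3 mice, and Socs3 was not called with the fixed block. Of 19 prostaglandin and lipoxygenase genes, with a median of 0.04, Alox12e (1.81), Alox8 (0.87), Alox12 (0.84) and Pla2g2f (0.62) rose. Ltb4r1 (-0.96), a leukotriene B4 receptor, and Ptgs1 (-0.86), a cyclooxygenase, fell. Without the block and after quantile normalization, 0 genes of this list were called, and Ltb4r1 was not called with the fixed block either. Of 19 matrix proteases and inhibitors, with a median of -0.26, the inhibitors Timp3 (1.07) and Timp2 (0.70) rose and the protease gene Adam8 fell by 1.32 (adjusted p = 0.00134, limma), from 43.9 ± 8.80 to 17.3 ± 5.60 FPKM (SD, n = 3). Rdh16 (0.68) and Aldh1a1 (0.83) rose among 17 vitamin D and retinoid genes, and Tnfaip3 (0.62), the A20 feedback inhibitor, among 18 NF-kB feedback genes. The 5 lists had shares called of 11.1%, 31.6%, 15.8%, 11.8% and 5.56% in the order given, beside 4.82% over all genes. The medians of the last 2 were -0.004 and 0.29. Timp2, Rdh16 and Aldh1a1 were not called without the block. Tnfaip3 was not called without the block, after quantile normalization or without any 1 of the 3 mice. The matrix metalloproteinase genes Mmp9, Mmp3 and Mmp10 had differences of -1.88, -1.50 and -1.27 (adjusted p = 0.0532, 0.0770 and 0.0539, limma), and all 3 were called with the fixed block (adjusted p = 0.0219, 0.0374 and 0.0373) and without mouse 817, so that the list then had 2 rises and 4 falls. In these 5 lists, the fits without mouse 815 called 0 genes, and those without mouse 814 called Adam8.

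In 33 tested genes reported as AP-1 targets in keratinocytes, 3 rose (Lcn2, Cdkn1a and Timp3) and 0 fell, a share of 9.09% beside 4.82% over all genes, with a median of 0.11. With the fixed block the list had 3 rises and 3 falls, the falls being the Mmp3, Mmp9 and Mmp10 named above, and without mouse 817 it had 5 and 3. Without mouse 814 or mouse 815, 1 of these was called. Among 11 genes of the EGF receptor family and its ligands, 14 of the Notch pathway and 19 of glucose uptake and glycolysis, 0 were called by limma, 3, 2 and 1 had an unadjusted p under 0.05, and the fixed block called 1, 0 and 0. Without mouse 817, 1, 2 and 0 were called, and after median rescaling 0, 1 and 0. Their medians were 0.25, -0.05 and -0.10. Hbegf and Epgn had differences of 0.35 and -0.22, Hes1 and Jag2 of 0.30 and -0.21, and Ldha and Pkm of 0.01 and -0.24.

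Set beside the control mice, the called genes divided by where the Co mean of log2(FPKM + 1) lay. Of the 412 genes higher in GFP, Co lay above both fractions in 224 (54.4%), between them in 96 (23.3%) and below both in 92 (22.3%). Among all 6164 tested genes with a positive difference, these shares were 53.9%, 10.9% and 35.2%. Of the 202 genes lower in GFP, Co lay below both in 109 (54.0%), between them in 60 (29.7%) and above both in 33 (16.3%), beside 49.9%, 11.2% and 38.9% of the 6587 tested genes with a negative difference. Called genes were selected for a wide gap between GFP and Tom, in which a Co mean falls more often, so nothing is read from the shares that differ from those of all genes. Co lay above both fractions for Krt77, Krt79 and Ctgf and below both for Gsta4 and Dsc2, on the side of GFP in each case, and Slpi, Tslp, Ccl20 and Lcn2 had Co below both fractions.

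AP-1 binds the 7-base motif TGANTCA, which reads the same on both strands. It was searched in RefSeq promoter windows of build GRCm38.p6, from 250 bases before to 50 after a gene's start. An entry was found for 9490 of the 12751 tested genes, and the motif was in 616 (6.49%) of them, in 23 of 310 genes higher in GFP (7.42%) and in 9 of 147 lower in GFP (6.12%). The naming rule given below covers 83 called genes, of which 67 have a window and 7 held the motif. These were Il1a, Ccl27a, Sbsn, Aldh1a1 and Tnfaip3, which rose, and Sprr2k and Guca2a, which fell. A match is a string of letters and not a site of binding. The windows of 4 of them, a pair that fell and a pair that rose, are shown in transcript direction with the matches in capitals. Those of Sprr2k (chr3:92432332-92432631, plus strand) start 196 and 182 bases upstream of the gene's start, that of Guca2a (chr4:119637482-119637781, plus strand) 200 bases upstream, that of Il1a (chr2:129309923-129310222, minus strand) 12 bases upstream, and those of Sbsn (chr7:30751221-30751520, plus strand) 119 and 6 bases upstream.
Sprr2k: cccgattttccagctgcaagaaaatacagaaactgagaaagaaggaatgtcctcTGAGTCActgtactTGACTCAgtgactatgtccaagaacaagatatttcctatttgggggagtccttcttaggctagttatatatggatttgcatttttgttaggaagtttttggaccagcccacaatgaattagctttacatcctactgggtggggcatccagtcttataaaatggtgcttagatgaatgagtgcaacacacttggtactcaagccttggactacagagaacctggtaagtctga
Guca2a: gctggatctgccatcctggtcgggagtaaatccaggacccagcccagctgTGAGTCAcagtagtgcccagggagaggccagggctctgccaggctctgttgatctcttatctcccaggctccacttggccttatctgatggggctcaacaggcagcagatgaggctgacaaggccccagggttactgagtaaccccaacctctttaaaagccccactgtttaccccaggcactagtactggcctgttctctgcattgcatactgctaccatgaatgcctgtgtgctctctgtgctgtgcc
Il1a: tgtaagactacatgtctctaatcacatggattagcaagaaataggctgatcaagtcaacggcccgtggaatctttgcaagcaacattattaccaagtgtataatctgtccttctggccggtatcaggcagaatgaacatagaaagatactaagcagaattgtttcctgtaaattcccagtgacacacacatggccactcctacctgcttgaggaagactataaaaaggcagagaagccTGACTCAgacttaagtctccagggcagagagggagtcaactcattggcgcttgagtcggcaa
Sbsn: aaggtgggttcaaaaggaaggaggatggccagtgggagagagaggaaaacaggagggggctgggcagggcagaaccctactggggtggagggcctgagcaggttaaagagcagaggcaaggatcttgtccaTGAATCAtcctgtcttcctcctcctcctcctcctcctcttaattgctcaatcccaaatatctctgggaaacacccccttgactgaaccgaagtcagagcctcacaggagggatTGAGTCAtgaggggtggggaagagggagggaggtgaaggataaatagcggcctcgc
The windows hold 250 bases of upstream sequence only, so distal elements were not covered.

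The same contrast was measured in HF-SCs of the same 3 mice, where 1729 genes were called (13.6% of those tested). Of the 614 b-KC genes, 252 were called there too, 234 in the same direction (180 higher and 54 lower) and 18 in the opposite one, and the 234 are 38.1% of the b-KC calls and 13.5% of the HF-SC calls. The difference between the cell types was itself called for 717 genes (5.62%), 98 of them among the 614. For Jun, Junb and Tslp it was not. Jun fell by 2.77 on the log2 scale and Junb by 2.33 in HF-SCs, and Tslp rose by 2.34 there against 1.40 in b-KCs, a difference of -0.94 between the cell types (SE 0.34, adjusted p = 0.147, limma).

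Genes that changed in b-KCs and differed between the cell types included Ctgf (1.78 in b-KCs, 0.08 in HF-SCs, adjusted p for the difference 9.66e-04, limma), Hspb1 (1.89 and 0.17, adjusted p = 7.61e-04), Isg15 (1.82 in b-KCs and close to 0 in HF-SCs, adjusted p = 0.00449), Bax (0.76 and -0.02, adjusted p = 0.0254) and Adam8 (-1.32 and -0.09, adjusted p = 0.0124). Cxcl1 differed by 1.49 in b-KCs and -0.57 in HF-SCs (adjusted p = 0.0264). HF-SC Tom libraries held endothelial transcripts, such as Pecam1 at 66.3 to 234 FPKM against 0.311 to 0.881 in b-KC Tom, and their part in these differences was not tested.

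**Figure D5:**
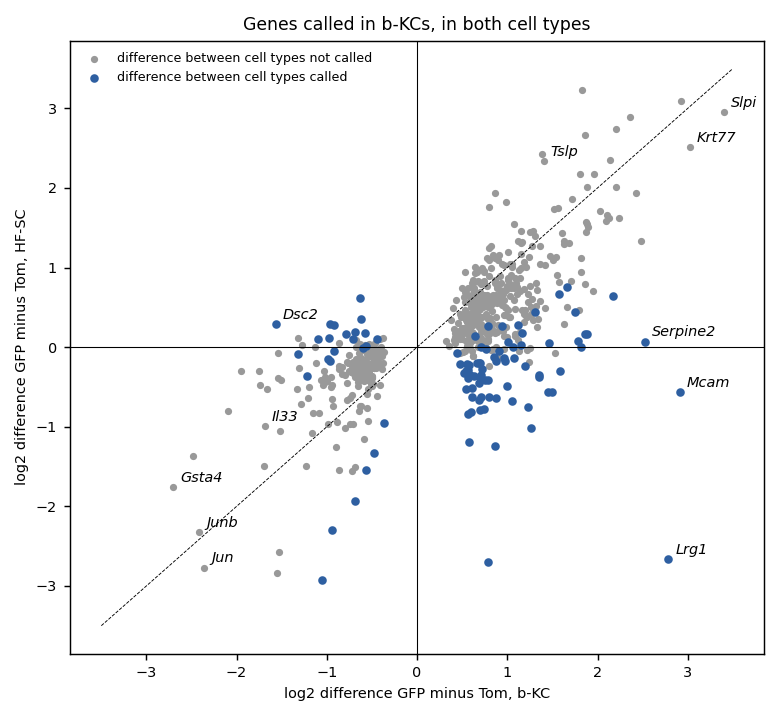
Log2 difference of GFP minus Tom in b-KCs (horizontal) and in HF-SCs of the same mice (vertical) for the 614 genes called in b-KCs, with the line of equal differences dashed. The 98 genes whose difference between the cell types was called are blue; Jun, Junb, Gsta4, Slpi and Krt77 lie in the quadrants of equal sign, and Mcam and Lrg1, which rose in b-KCs, have values of -0.56 and -2.67 in HF-SCs.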

How the data were processed

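Total RNA of sorted cells was amplified with SMART-Seq v4 and sequenced as single-end reads without strand information, so a gene and an antisense or near-identical copy cannot always be told apart. According to the study's methods, reads were aligned to NCBI37/mm9 with TopHat 2.0.10 and Bowtie 1.0.0, and the submitters' processing notes name Cufflinks 2.2.1. The FPKM values of 23951 gene symbols in 18 libraries, deposited by the authors, were the input, and 0 columns were left unmapped. Counts and total depth are not in these values, so the test is not the authors' own.

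Values were taken as log2(FPKM + 1), genes reaching 1 FPKM in 3 or more libraries were kept, and 6 group means were fitted over the 18 libraries with limma 3.58.1 (R 4.3.3), with the mouse as a random block (correlation 0.27), an eBayes trend and Benjamini-Hochberg adjustment at 0.05. GFP and Tom of a number came from the same animal, and their deviations from the group means correlated at 0.24, 0.67 and 0.69 in mice 814, 815 and 817. On simulated data of the b-KC GFP against Tom comparison (12751 genes), 86 of 100 genes changed by 1, 98 of 100 changed by 2 and 16 of 12551 unchanged genes were called. The noise was normal, with the correlation of 0.27 for every mouse. Changes were put only in genes with a b-KC Tom mean above 3 on log2(FPKM + 1), so weaker genes are not covered. Named genes were Jun, Junb and Tslp, the AP-1 and cytokine list members, the 10 largest called rises and 10 largest falls of 1 sign in all 3 mice, up to 4 called members of every other list by size of difference or, with none called, up to 2 by mean FPKM, and the 5 largest interaction calls in each direction. Genes named beyond this rule were chosen after their values were seen. The values of some list members are not reported here, and the counts and medians of their lists include them. The members and the 25 pathway and 12 marker lists were chosen with earlier results of these data known. Of 639 listed symbols, 7 were matched under another symbol. Gene coordinates are those of NCBIM37. Alternatives were other blocks, pseudocounts, filters, scalings, thresholds and leaving out each mouse. Tables and plots were made with Python 3.11.15, pandas 2.3.3, numpy 2.4.6 and matplotlib 3.10.9.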

Additional observations from a re-analysis of the deposited data

Results flagged for a closer look

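The GFP minus Tom difference of 717 genes differed between b-KCs and HF-SCs by the limma interaction test at an adjusted p under 0.05. The 5 with the largest positive difference (b-KC minus HF-SC, log2 scale) were Sele (6.56), Ackr1 (6.43), Selp (6.28), Fabp4 (6.09) and Aqp1 (5.94), which are known as genes of vessels. In HF-SC Tom libraries Sele had 307, 428.5 and 142 FPKM, while all 6 b-KC GFP and Tom libraries had at most 0.260, and the part of endothelial RNA in these values was not tested.

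The 5 with the most negative difference were Sprr2f (-1.98), Dsc2 (-1.86), Slc6a14 (-1.77), Snord110 (-1.64) and Myoc (-1.41). Dsc2 had a difference of -1.57 in b-KCs and 0.29 in HF-SCs (adjusted p of the interaction 0.0120, limma). Slc6a14, an amino acid transporter, had 0.18 in b-KCs and 1.95 in HF-SCs. Snord110 was listed at 0 in all 3 HF-SC Tom libraries and in 3 of the 6 b-KC libraries.

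Among the largest b-KC changes, the difference between the cell types was 3.47 for Mcam, 5.45 for Lrg1 and 2.46 for Serpine2. Lrg1 had 453, 375 and 201 FPKM in HF-SC Tom and 56.7, 59.0 and 37.8 in HF-SC GFP. Serpine2 had 17.3, 16.8 and 8.76 FPKM in HF-SC Tom, far above its 0.418 to 0.715 in b-KC Tom.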

How the results depend on the processing

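The count of 614 b-KC genes was 218 without the replicate block, 274 with the block over the 12 DKO* libraries alone, 381 after quantile normalization, 230 at an adjusted p under 0.01 and 18 when a log2 difference of at least 2 was asked as well. With the mouse as a fixed block over the 6 libraries it was 474, and 311 of the 614 genes were among these. Leaving out 1 mouse gave 61 to 1066 genes, 138 without mouse 814, 61 without mouse 815 and 1066 without mouse 817. The 717 interaction calls became 472 and 246 at the stricter thresholds and 271 to 2213 without 1 mouse, 291 without mouse 814, 271 without mouse 815 and 2213 without mouse 817. The other alternatives gave 432 to 750 and 503 to 817 genes. The naming rule covers 83 of the called genes. Of these, 46 lost their call without the block and 28 with the fixed block, which added 3. Without mice 814, 815 and 817, 56, 64 and 10 lost it, and the last of these fits added 8. Called genes named beyond the rule are not counted here. Of those 83, 0 changed direction under the alternatives run, whereas some named genes that were not called, such as Krt14, Il19 and Ldha, took either sign. The share of calls that were higher was 67.1%, and 75.1% after median rescaling, 78.3% with the fixed block and 60.1% without mouse 814. Positive interaction calls were 90.8%, and 57.3% without mouse 817. The cause of these shifts was not tested, and leaving out a mouse also left fewer libraries. Depth is known only in relative terms, which limits statements on genes near 0 FPKM.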
